A study of Caenorhabditis elegans with 2 samples.

Results

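The regions described are promoter peaks of 4 autosomes (I, II, III and IV) in a ChIP-seq experiment on CEH-82, a homeobox protein of the nematode Caenorhabditis elegans that is encoded by ceh-82 (F45C12.2). A peak of the authors' pooled list entered the set when it lay on one of these chromosomes, when its signal value was at least 3.5, and when its summit lay within 500 bp of the annotated start of a protein-coding gene. These conditions were met by 1065 of the 15658 pooled peaks, at 1002 different genes. The authors' label for the pooled list is peaks and background, so the entries called peaks here can include background regions. The signal value is a score that the authors' caller wrote for each peak, relative to a control, on a scale not given in the sources used here. It chose the peaks, so the values below describe them and test nothing. Both samples were biological replicates of 1 group, fourth-stage (L4) larvae of strain OP212 with the genotype unc-119(ed3) III; ddEx58, and the sexes were mixed. By this genotype the strain carries the unc-119 mutation and the transgene, which expresses CEH-82 with GFP and FLAG fused to its C-terminal end. The labels call the construct an insertion, although its name has the form used for an extrachromosomal array. Whether every animal carried the construct is not settled here. The labels name neither its promoter nor the cells that express it. Chromatin came from whole animals and was sheared by sonication, so a peak sums over all tissues. The replicate lists held 4561 peaks (replicate 1) and 8651 peaks (replicate 2), and the pooled list was made from the reads of both, which means that neither replicate list is independent of the choice of peaks. Read depth is unknown from the lists, and signal values of different lists may be scaled differently, so no order between the replicates is read from the values alone, and counts that compare the replicates are given by rank within each list as well. The control was not analysed here, so binding by the protein is not established for any of the peaks.

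Homeobox proteins are transcription factors whose DNA-binding domain, the homeodomain, commonly contacts short A/T-rich sequences built around TAAT. In ChIP-seq of a tagged factor, fragments crosslinked to the factor directly or through other proteins are recovered alike, and in this animal the promoters of broadly expressed genes are recovered with many different factors. Genes for ribosomal proteins, translation factors and protein turnover are of that kind: they are transcribed in nearly every cell, often from compact promoters, and many of their messages are trans-spliced, so that transcription can begin upstream of the annotated start. Whether the peaks described here would also be recovered with another tagged factor was not tested.

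Of the 6 strongest promoter peaks, 5 held the same pair of words close to the summit, and their sequences are printed first because they show what those peaks share. Each stretch is given 5' to 3' on the strand where ACACT is followed by AACACGC, on build ce11 with sequence from the RefSeq assembly of that build, and the capitals mark the pair. No stretch overlaps an annotated exon, and the middle of each lay within 20 bp of the summit. The stretches lie at chrIII:3867565-3867623 on the minus strand (rpl-3), chrIII:10759211-10759264 on the plus strand (tasp-1), chrIV:654889-654938 on the plus strand (rpl-15), chrII:10563534-10563589 on the minus strand (cdc-48.1) and chrIII:7854661-7854714 on the minus strand (rpl-35).
rpl-3: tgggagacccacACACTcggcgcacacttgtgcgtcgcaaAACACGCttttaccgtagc
tasp-1: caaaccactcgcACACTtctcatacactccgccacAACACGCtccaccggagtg
rpl-15: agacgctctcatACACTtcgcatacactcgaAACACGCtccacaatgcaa
cdc-48.1: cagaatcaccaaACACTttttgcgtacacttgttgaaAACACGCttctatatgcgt
rpl-35: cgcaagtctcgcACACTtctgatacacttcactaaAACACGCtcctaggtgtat
Between the words of the pair, as marked, lay 23 bases at rpl-3, 18 at tasp-1, 14 at rpl-15, 20 at cdc-48.1 and 18 at rpl-35. All 5 stretches hold ACACT again, in small letters, between the marked words. The bases were thus counted from the ACACT farther from AACACGC, and the nearer ACACT leaves fewer. The pair was chosen after these sequences were seen and gets no test. Searched on both strands within 50 bp of the summit, with 5 to 25 bases between the words, it was found in 5 of the 6 strongest peaks and in 0 of the other 1059. It was found in 0 of 2130 windows 250 bp to either side of the summits, in 0 of 1474 weaker promoter peaks, in 0 of 2405 peaks of signal 3.5 or more away from gene starts, in 1 of 5451 peaks on V and X, and in 1 of 12248 windows of the same length at all protein-coding starts of these autosomes. The pair itself occurred at 66 places on the 4 autosomes, 13 of them within 500 bp of a start; a summit lay within 50 bp of 6 of the 66 and of 5 of the 13.

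Some of the strongest peaks also held another word, which the pair does not contain. GCGCNCTT, likewise chosen after sequences were seen, stood within 50 bp of the summit in 7 of the 25 strongest promoter peaks. Other words were counted in the same way: GGGTCTC stood in 4 of the 25, GACGCAG in 3 and ACACGCT, which overlaps AACACGC of the pair, in 6. Printed next are examples that overlap no annotated exon, of which pcn-1, atad-3 and apb-1 rank below the 25, with GCGCNCTT in capitals, 5' to 3' on the strand that reads it; the peak at eelo-2, at chrIV:17249908-17249939, was the one of the 6 strongest without the pair. The others lie at chrIV:13240707-13240731 (rpl-12), chrIV:15471619-15471650 (ntl-11), chrIII:5679096-5679127 (ska-3), chrIV:1659245-1659276 (rps-28), chrIV:4049669-4049700 (pcn-1), chrII:10248548-10248579 (atad-3) and chrIII:2597252-2597283 (apb-1), on the minus strand for ska-3, pcn-1 and apb-1 and on the plus strand for the rest.
eelo-2: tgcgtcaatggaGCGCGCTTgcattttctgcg
rpl-12: attaactgtggaGCGCACTTgcatt
ntl-11: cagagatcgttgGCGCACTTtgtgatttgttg
ska-3: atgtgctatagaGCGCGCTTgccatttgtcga
rps-28: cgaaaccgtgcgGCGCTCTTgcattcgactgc
pcn-1: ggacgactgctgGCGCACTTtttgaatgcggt
atad-3: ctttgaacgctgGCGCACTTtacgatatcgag
apb-1: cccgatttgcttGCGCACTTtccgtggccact
Among all 1065 promoter peaks, 57 (5.35%) held GCGCNCTT, against 1.42% of the weaker promoter peaks, 0.748% of equally strong peaks away from starts, 1.03% and 0.563% of the windows 250 bp to either side, and 0.865% of windows of the same length at all promoters. Outside the 25 strongest, 50 of 1040 peaks (4.81%) held it. Where its free base is G, the word contains GCGCG, a word tested below.

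The 6 strongest peaks lay upstream of their genes, between -54 bp (tasp-1) and -465 bp (rpl-35) from the start. The peak at rpl-3, a gene for a large-subunit ribosomal protein, had a signal value of 47.6 in the pooled list, 12.3 in replicate 1 and 36.7 in replicate 2, and its summit lay at -280 bp. At tasp-1, named for the protease taspase, the values were 40.5 pooled, 11.3 in replicate 1 and 28.4 in replicate 2. The rpl-15 peak, also at a gene for a large-subunit protein, had 40 pooled, 2.8 in replicate 1 and 34.3 in replicate 2. It thus ranked 6 in the list of replicate 2 and 1968 in that of replicate 1, so the replicates placed this peak far apart. At cdc-48.1, which encodes an ATPase that extracts proteins for degradation, the values were 31.9 pooled, 9.04 in replicate 1 and 23.1 in replicate 2. The eelo-2 peak had 26.6 pooled, 9.4 in replicate 1 and 16.4 in replicate 2. At rpl-35, another large-subunit gene, the values were 26 pooled, 13.1 in replicate 1 and 15.2 in replicate 2. The pair was thus carried by peaks that ranked 15 to 40 in the list of replicate 1, with rpl-15 as the exception, and 4 to 31 in that of replicate 2.

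Below these, the peaks of highest signal stood at varied genes, several of them with roles in gene expression. ints-4, a subunit of the Integrator complex that processes small nuclear RNAs, had 22.7 pooled, 8.6 in replicate 1 (rank 44) and 12.8 in replicate 2 (rank 50), with its summit in the 5' UTR. vig-1, whose fly homolog belongs to the RNA interference machinery, had 22.3 pooled, 3.36 in replicate 1 (rank 1057) and 17.7 in replicate 2 (rank 22). Y17G9B.5 had 21.7 pooled, 5.77 in replicate 1 (rank 132) and 17.1 in replicate 2 (rank 24). Each of these values lay above the median of its own list, 2.66 in replicate 1 and 2.84 in replicate 2, and the ranks of vig-1 differed most. egl-30, which encodes the G protein subunit Gq alpha, had 20.7 pooled, 8.1 in replicate 1 (rank 52) and 12.3 in replicate 2 (rank 54). mdt-26, a Mediator subunit that links factors to RNA polymerase II, had 19 pooled, 4.17 in replicate 1 (rank 435) and 15.5 in replicate 2 (rank 29). scpr-1 had 18.7 pooled, 3.41 in replicate 1 (rank 1001) and 14.3 in replicate 2 (rank 35). By rank, mdt-26 and scpr-1 stood higher in replicate 2, whereas egl-30 stood at nearly the same place in each list. sqd-1, whose fly homolog binds RNA, had 17.4 pooled, 4.57 in replicate 1 (rank 305) and 11.8 in replicate 2 (rank 62). rpl-12, of the large ribosomal subunit, had 17.2 pooled, 4.87 in replicate 1 (rank 241) and 10.7 in replicate 2 (rank 83). epc-1, related to Enhancer of Polycomb, had 17.1 pooled, 3.97 in replicate 1 (rank 529) and 15.2 in replicate 2 (rank 30).

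Of the 25 strongest promoter peaks, all 25 matched replicate 2 and 20 matched replicate 1 by overlap. The exceptions, with no peak in replicate 1, were eif-3.C (a subunit of the initiation factor eIF3, 18.3 pooled and 14.2 in replicate 2), iff-2 (the factor eIF5A, 16.6 and 13.9), trap-3 (a protein of the endoplasmic reticulum translocon, 16.4 and 15), ceh-38 (a homeobox gene of the ONECUT type, 15.9 and 14.8) and ska-3 (named for a kinetochore complex, 15.2 and 13.1). Of the 20 found in both, 16 had the better rank in replicate 2 and 4 in replicate 1, although 19 had the higher value in replicate 2. The 4 were rpl-35 (rank 15 in replicate 1 and 31 in replicate 2), ints-4, egl-30 and rps-28, of the small ribosomal subunit, with 8.82 in replicate 1 (rank 42) and 5.71 in replicate 2 (rank 542). The remaining peaks among the 25, at wwp-1 (a ubiquitin ligase), tre-1 (a trehalase), ntl-11 (named for the CCR4-NOT complex) and gmps-1 (GMP synthase), had pooled values of 16.3, 16.1, 15.2 and 14.6. Of the 25 summits, 22 lay upstream of the start, 19 were intergenic and 3 fell in noncoding RNA genes. The authors' thresholded list of 57 peaks was their set from an irreproducible discovery rate (IDR) procedure. It held 18 of the 1065 (1.69%), from rpl-3 down to trap-3, and 0 of the 1474 weaker promoter peaks.

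**Figure D1:**
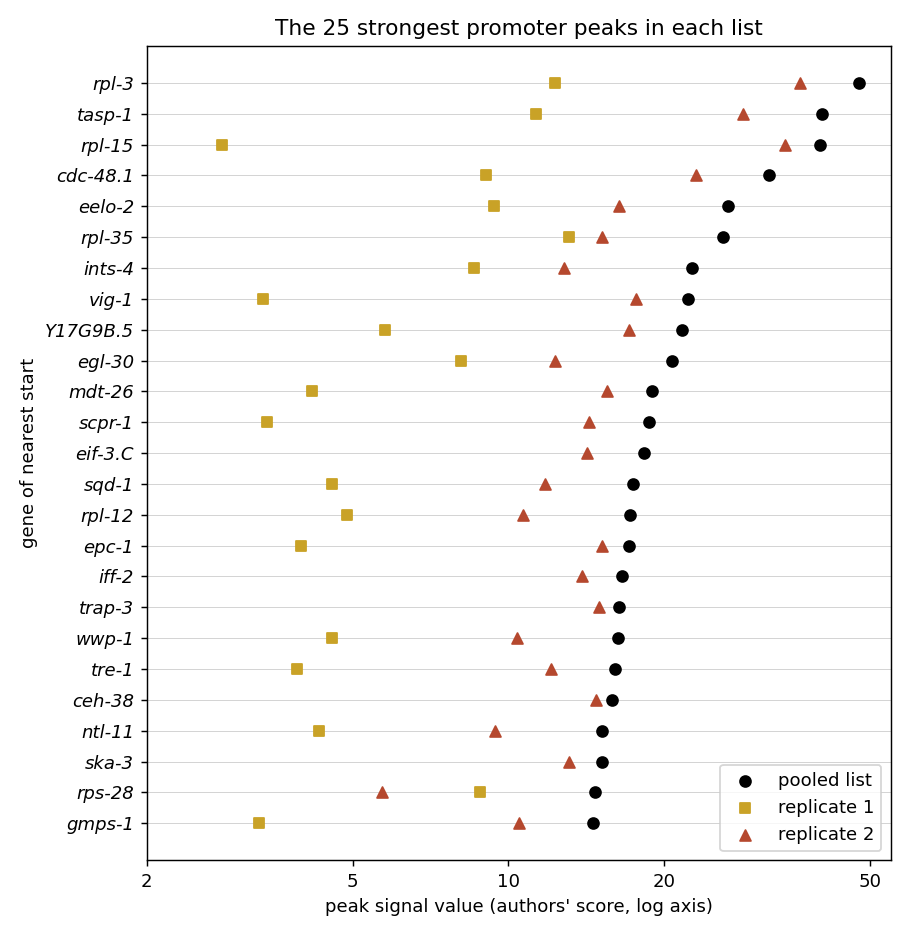
Signal values of the 25 strongest promoter peaks, 1 row per peak named by the gene of nearest start; circles show the pooled list, squares replicate 1 and triangles replicate 2, on a log axis of the authors' score. Triangles lie to the right of squares in 19 of the 20 rows that have both, and 5 rows have no square; the scale may differ between lists, so ranks are given in the text.

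Most of the set was weaker than these examples and poorly shared between the replicates. The median signal value was 4.73 (quartiles 3.99 and 6.17), and 73 peaks (6.85%) reached 10. Just inside the limit stood melo-2 and C17H12.6 at 3.5042 and R03H10.5 at 3.5038, and just outside it F58D2.2 at 3.4997, stam-1 at 3.4989 and F25B5.5 at 3.4979. The values on either side of the limit run into each other, so no gap separates the set from weaker promoter peaks. The −log10 q-value stood at the list's highest value, 2.32, in 646 of the 1065 peaks (60.7%). An overlap of at least 1 bp with a peak of both replicates was found for 206 (19.3%, exact 95% interval 17 to 21.8%), against 60 of 1474 weaker promoter peaks (4.07%). Away from starts, 331 of 2405 peaks of signal 3.5 or more (13.8%) had such an overlap. Their median signal value was lower, 4.41 against 4.73, so these sets share the limit but are not matched in strength. A further 530 of the 1065 (49.8%) had a match in replicate 2 only, 172 (16.2%) in replicate 1 only, and 157 (14.7%) in neither. Replicate 2's own list was also the longer one, and the part of its length in these counts was not tested. With ranks in view, 51 of the 1065 (4.79%) matched a peak among the 1000 strongest of both lists. The interval, like those that follow, is an exact Clopper-Pearson interval and covers counting error only.

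Across the 206 peaks with a match in each replicate, their signal values in replicate 1 and replicate 2 were related with Pearson's r = 0.499 and Spearman's rho = 0.246, a description only, since the peaks share libraries and were chosen on the pooled signal. The value was higher in replicate 2 for 147 of them (71.4%), but the rank was better in replicate 2 for 96 (46.6%) and in replicate 1 for 109 (52.9%), so the direction depends on the measure. Judged by the worse of their ranks in the replicate lists, rpl-3, tasp-1, rpl-35, eelo-2, cdc-48.1, ints-4, egl-30, a second peak of mdt-26, Y17G9B.5 and pcn-1 were best. That second mdt-26 peak had only 4.56 pooled, and it overlapped the same replicate 2 peak (15.5, rank 29) as the stronger peak of mdt-26. pcn-1, which encodes the DNA replication clamp PCNA, ranked 153 in each list, with 5.44 in replicate 1 and 8.98 in replicate 2. Among peaks seen in replicate 1 only, the strongest stood at gtsf-1, a small RNA pathway gene, with 8.2 pooled and 7.72 in replicate 1. Next came rab-7, a GTPase of late endosomes, with 8.1 pooled and 5.12 in replicate 1. Among those in neither list, the strongest stood at snrp-3, at 6.47 pooled.

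A pair of peaks was found at 63 genes and no gene had 3. The 5 such genes of highest signal show how far these peaks can be told apart. At epc-1 the peaks had pooled values of 17.1 and 4.35, and both overlapped the same peaks of replicate 1 (3.97) and replicate 2 (15.2). At mdt-26 they had 19 and 4.56, and at rpl-15 40 and 4.73. At T26A8.4 the values were 14.6 and 6.53, while at F53A3.7 they were nearly equal at 13.7 and 13.6, both overlapping 1 peak of replicate 2 (12.6) and none of replicate 1. Since the peaks are 370 bp wide, apart from the narrower ones at rpl-3 and tasp-1, such neighbours are not separate observations: the 1065 peaks matched 359 different peaks of replicate 1 and 695 of replicate 2, and 45 summits lay within 370 bp of the next.

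Summits of the set lay more often upstream of the gene start than those of weaker promoter peaks. Of the 1065, 652 (61.2%) were upstream, against 730 of 1474 (49.5%) with a signal value below 3.5, an odds ratio of 1.61 (Fisher's exact test, two-sided, p = 5.85e-09, which compares peaks of this list and not animals). The median position was -62 bp (quartiles -222 and 147, negative being upstream), against 3 bp for the weaker peaks. From 300 bp to 200 bp upstream lay 13.3% of the set and 9.7% of the weaker peaks, from 200 to 100 bp 16.7% and 11.5%, and in the last 100 bp before the start 16.3% and 12.5%. In replicate 1's own list alone the strongest promoter peaks, taken as the same share of that list, were upstream in 55.9% against 50% of the rest (Fisher's exact test, p = 0.107), so the difference was not called there; in replicate 2's list the shares were 60.9% and 53.4% (exact p = 0.00443).

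**Figure D2:**
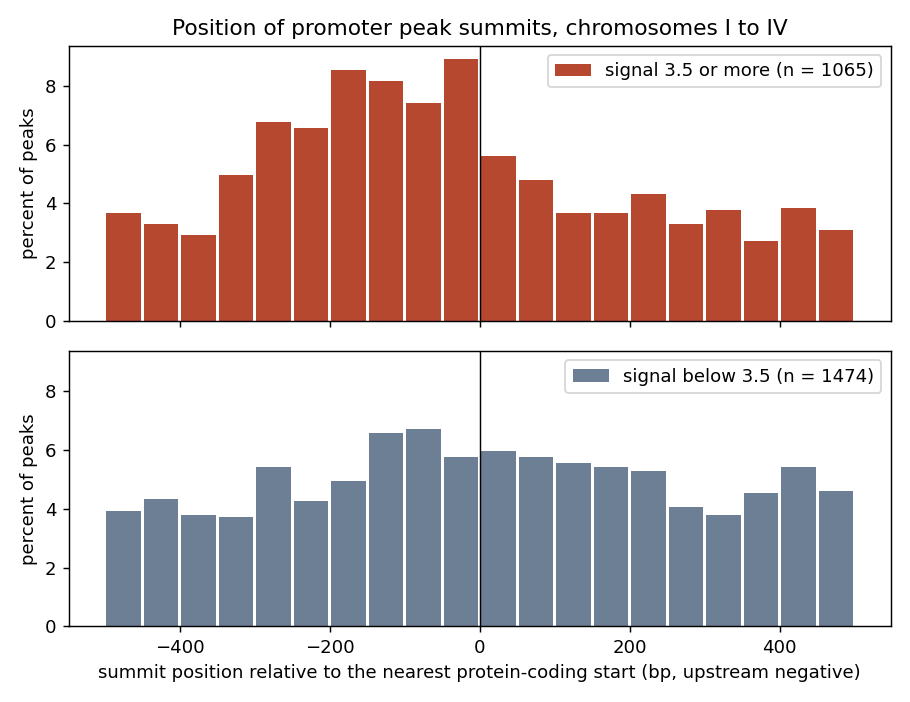
Position of the summit relative to the nearest protein-coding start in bins of 50 bp, as a percentage of the peaks, with the 1065 promoter peaks of signal 3.5 or more above and the 1474 weaker ones below. The upper distribution is highest between about 300 bp upstream and the start, while the lower one is flatter, with a median of 3 bp.

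By annotation, 528 summits of the set (49.6%) were intergenic, against 39.3% of the weaker promoter peaks, and 211 (19.8%) fell in coding exons, against 27.9%. Introns held 15.9% and 20.3%, the 5' UTR 6.01% and 6.38%, and a 3' UTR 4.41% and 4.88%. Noncoding RNA genes held 46 summits (4.32%), against 1.29%. Starts of snoRNA genes, which encode guides for RNA modification and often sit beside or inside ribosomal protein genes, lay within 500 bp of 33 of the 1065 (3.1%), against 15 of the weaker peaks (1.02%). For tRNA genes these counts were 7 and 8, for snRNA genes 6 and 4, and for miRNA genes 6 and 4. Which of the neighbouring starts a peak belongs to cannot be told from its position.

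Divergent promoters, where genes on opposite strands start near each other and point away, were more frequent in the set. Such facing starts lay within 500 bp of 166 of the 1065 summits (15.6%), against 107 of the 1474 weaker ones (7.26%), an odds ratio of 2.36 (Fisher's exact test, two-sided, p = 3.58e-11). Among the 25 strongest, 10 were of this kind, among them rpl-15, rpl-12, trap-3, tre-1, ceh-38 and gmps-1. The call depended on how replicate 2 was used alone: its 1065 strongest promoter peaks had facing starts in 14% against 10.7% of the rest (Fisher's exact test, p = 0.0921), whereas the same share of its list as in the pooled list, 631 peaks, had 16.8% against 10.3% (exact p = 2.56e-04). In replicate 1's list the same share, 320 peaks, had 11.6% against 6.76% (exact p = 0.0269).

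These shares were higher in each higher class of signal value. From weaker promoter peaks (2 to 3.5) through 3.5 to 4, 4 to 5, 5 to 7, 7 to 10 and 10 or more, the share upstream was 49.5%, 53.5%, 58.8%, 64%, 68.3% and 79.5%. Facing starts were found in 7.26%, 9.23%, 14.5%, 15.5%, 22.2% and 32.9%. Overlap with a peak of both replicates, which is not independent of the pooled signal, was found in 4.07%, 6.64%, 9.2%, 19.4%, 44.4% and 69.9%. The strongest class, 73 peaks, thus differed most from the weaker promoter peaks in each of these, and all 73 overlapped a peak of replicate 2. A summit between facing starts lies upstream of each, so the shares upstream and with facing starts are linked. The share upstream without such peaks was not counted.

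**Figure D3:**
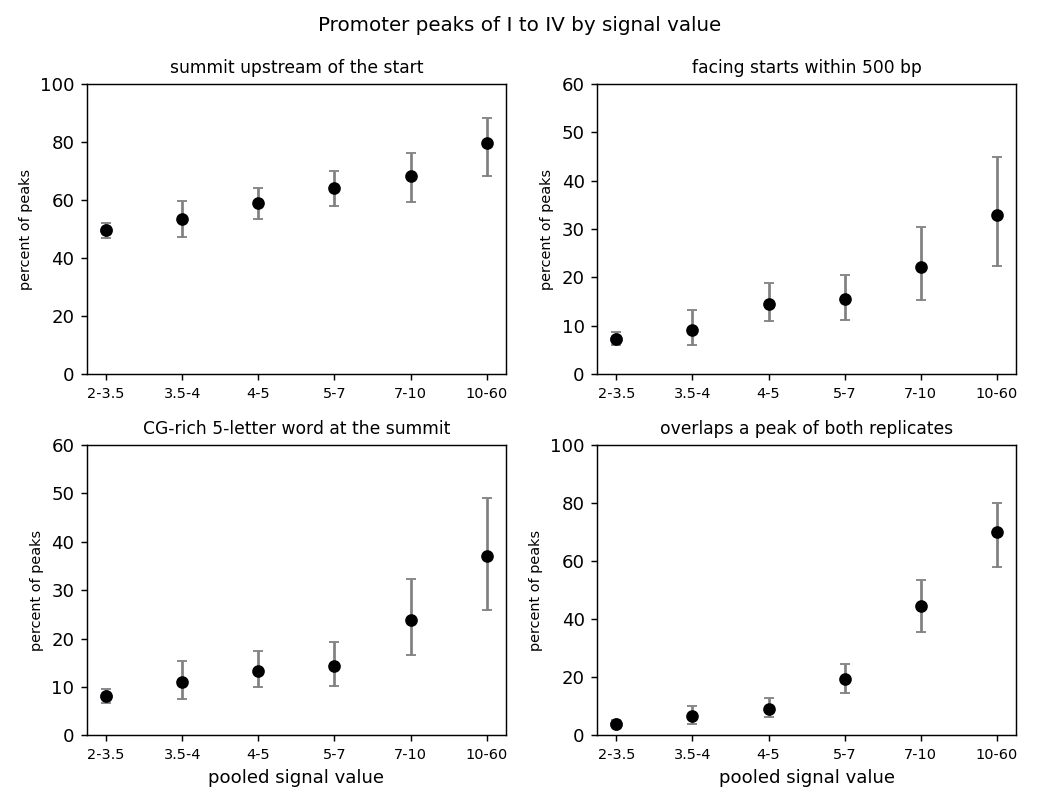
Promoter peaks of I to IV in 6 classes of pooled signal value, weaker peaks at the left, with points for the percentage of peaks that have each property and bars for exact 95% intervals (1474, 271, 337, 258, 126 and 73 peaks). All 4 percentages are highest in the class of 10 or more, at 79.5% upstream, 32.9% with facing starts, 37% with the CG-rich word and 69.9% in both replicates.

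Grouped by where they were seen, the 206 peaks found in both replicates were upstream in 66.5% and had facing starts in 22.3%. Those found in replicate 2 only were upstream in 59.8% and had facing starts in 17%, those in replicate 1 only in 60.5% and 9.3%, and those in neither in 59.9% and 8.92%. Upstream positions thus ranged less among the 4 classes than facing starts, which had their lowest shares among peaks without a replicate 2 match; these differences were not tested. The classes also differ in signal, with medians of 7.15 in both, 4.73 in replicate 2 only, 4.52 in replicate 1 only and 3.98 in neither.

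Summits were richer in G and C than their surroundings and held particular words more often than flanking DNA. Over the 100 bp around the summit the share of G and C was 40.9%, against 37.1% in the windows centred 100 bp upstream on the chromosome and 36.8% 100 bp downstream of it. The weaker promoter peaks reached 37.6% at the summit, and equally strong peaks away from starts 39.8%. Of 12 words compared with the windows 250 bp to either side (exact McNemar test on each side, Benjamini-Hochberg adjustment over 24 tests), 3 were more frequent and 2 less frequent at the summit on both sides.

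GCGCG stood within 50 bp of 169 summits (15.9%), against 6.38% and 5.26% in the flanks (exact test, adjusted p = 8.97e-11 and 2.15e-15). It was found at 8.14% of weaker promoter peaks, an odds ratio of 2.13 (Fisher's exact test, p = 2.47e-08 adjusted over the 12 words), at 6.69% of equally strong peaks away from starts, and at 5.35% of all promoter windows of the same length. By signal class the share was 8.14%, 11.1%, 13.4%, 14.3%, 23.8% and 37%. Of the 25 strongest peaks 10 held it. It stood at 21.4% of the summits found in both replicates and 18.3% of those in replicate 2 only, but at 8.14% of those in replicate 1 only and 8.92% of those in neither. In the replicates' own lists, the strongest promoter peaks held it in 20.1% against a mean of 5.31% in the flanks for replicate 2 (exact test, adjusted p = 2.69e-13, the larger of the sides) and in 14.1% against 5.78% for replicate 1 (exact test, adjusted p = 0.0268). The part that the higher share of G and C has in this was not tested.

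GAGAGA, the core word of GAGA factors in insects, was found at 11.5% of summits, against 6.67% and 7.14% in the flanks (exact test, adjusted p = 4.42e-04 and 0.00161) and 7.33% of weaker promoter peaks (exact test, adjusted p = 0.00207). Away from starts it stood at 11.7% of peaks of signal 3.5 or more, and it was found in 9.51% of all promoter windows. CTGCGTCT was found at 3.47%, against 0.845% and 1.13% (exact test, adjusted p = 3.24e-04 and 0.00161), and against 2.17% of weaker promoter peaks, a difference that did not pass (exact test, adjusted p = 0.116). TTTCAG, the consensus of splice acceptor and trans-splice sites, was less frequent at summits than in the flanks, at 16.7% against 21.4% and 23.1% (exact test, adjusted p = 0.0223 and 0.00161). Weaker promoter peaks held TTTCAG in 20.4%, a difference that did not pass (exact test, adjusted p = 0.0621). Peaks of signal 3.5 or more away from starts held it in 16.2%, and all promoter windows in 14.3%. TATAAA, the TATA box, was at 8.08% against 11.5% and 11.2% (exact test, adjusted p = 0.0281 and 0.0397), a call that was lost with a window of 250 bp or 1000 bp or a signal value of at least 3 (adjusted p = 0.189, 0.118 and 0.0791, exact tests). Against weaker promoter peaks, at 9.36%, TATAAA did not pass either (exact test, adjusted p = 0.415). It stood at 9.15% of peaks of signal 3.5 or more away from starts and in 18.3% of all promoter windows. In replicate 1's own list none of these 4 words was called, and TATAAA was not called in that of replicate 2 either. GCGCG was the 1 of the 12 words that passed against both flanks in each replicate list.

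TAATTA, a palindrome of the homeobox core, was found at 39 summits (3.66%), against 4.13% in each flank (exact test, adjusted p = 0.835 on both sides), 3.39% of weaker promoter peaks and 6.61% of all promoter windows. No difference of the summits from the flanks or from weaker promoter peaks was detectable (Fisher's exact test against the latter, adjusted p = 0.884). The lower share than in all promoter windows was not tested. The E-box CACGTG (2.54% against 1.78% and 1.41%), the GATA word TGATAA (8.08% against 8.92% and 8.17%) and GGGCGG (3% against 1.5% and 2.25%) were not called, nor were CTTCTTCT and ACTACAAA. In other settings CACGTG was more frequent at summits with a window of 250 bp (3.35%, exact test, adjusted p = 0.0387), and GGGCGG in replicate 2's own list (3.85%, exact test, adjusted p = 0.0249). TTTTTTTT was not called against the flanks, at 8.26%, but was less frequent than at weaker promoter peaks, where it stood at 11.7% (exact test, adjusted p = 0.0212). Against the flanks it was less frequent at a signal value of at least 5 (4.81%, exact test, adjusted p = 0.0129) and in replicate 2's own list (6.67%, exact test, adjusted p = 0.00941).

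**Figure D4:**
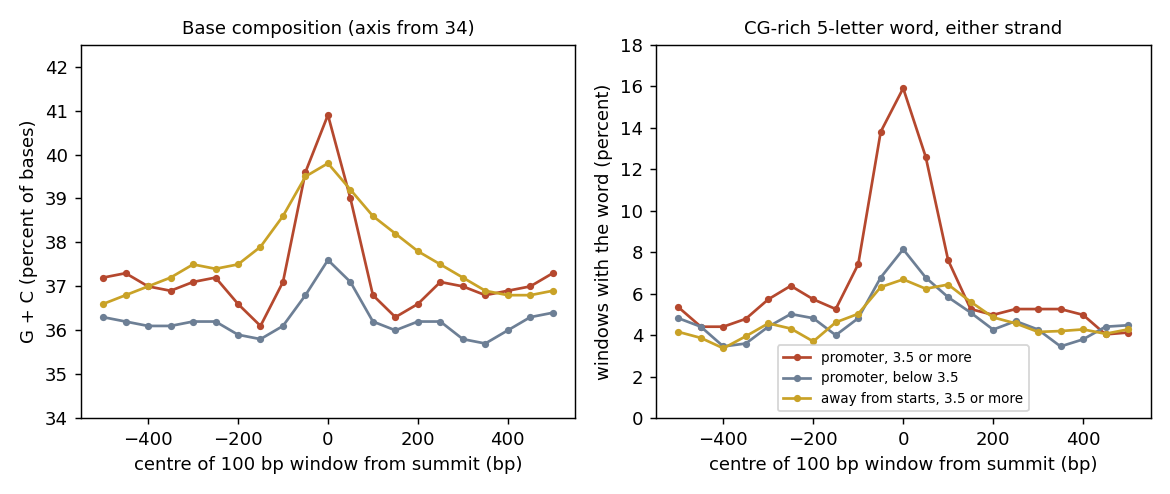
Share of G and C (left, axis from 34%) and share of windows with the CG-rich 5-letter word described in the text (right). Windows of 100 bp are centred up to 500 bp from the summit. The sets are promoter peaks of signal 3.5 or more, weaker promoter peaks, and peaks of signal 3.5 or more away from starts. Promoter peaks of signal 3.5 or more reach 15.9% with the word at the summit, against 8.14% and 6.69%, and all 3 sets peak in G and C at the summit.

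A count of all 6-letter words, added after the sequences were seen, was led by words that hold CG. Of 2080 words, each joined with its reverse complement, 31 (1.49%) were more frequent at summits than in both flanks (exact McNemar tests, adjusted p under 0.05 on the worse side) and 5 less frequent. Of the 31, 25 held CG, which 604 of all 2080 words hold, and 22 also passed Fisher's exact test against the weaker promoter peaks. Among the strongest were ACGCGC at 6.57% of summits against 1.6% and 1.88% in the flanks, GCCAGC at 6.1% against 1.6% and 1.69%, and GACGCA at 8.64% against 2.91% and 3.38%. GACGCA overlaps CTGCGTCT read on the other strand, and ACGCGC contains GCGCG read on the other strand, so these are not separate observations. Of the 5 less frequent words, 3 were made of A and T only.

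The genes of nearest start were counted in 25 lists of gene names, beside the share of all protein-coding genes of I to IV that held a peak of the set, 1002 of 12248 (8.18%). Genes for ribosomal proteins, which build both subunits of the cytosolic ribosome, held one in 38 of 71 cases (53.5%, exact 95% interval 41.3 to 65.5%), the highest share of the 25 lists. They numbered 23 of 40 genes of the large subunit, 14 of 28 of the small subunit and 1 of 3 stalk proteins. Their 44 peaks had signal values of 3.53 to 47.6 with a median of 5.5, against 4.73 over the whole set; 33 of the 44 (75%) lay upstream, 36 overlapped a peak of replicate 2, 17 one of replicate 1 and 10 (22.7%) both, beside 736 (69.1%), 378 (35.5%) and 206 (19.3%) of the whole 1065. GCGCG stood at 9 of the 44 (20.5%) and facing starts at 10. Beyond those already named, rps-1 had 11.1 pooled and 9.3 in replicate 2, rps-23 had 10.4 pooled, 3.87 in replicate 1 and 3.85 in replicate 2, and rpl-6 had 9.31 pooled and 9.63 in replicate 2. The ribosomal protein peaks of highest rank in replicate 1 were those of rpl-35, rpl-3 and rps-28.

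Other lists of broadly used machinery stood above 8.18% as well. Vacuolar ATPase genes, whose product acidifies organelles, held a peak in 5 of 15 (33.3%, interval 11.8 to 61.6%), with vha-8 (5.51) and vha-11 (5.39) the highest pooled values. The ubiquitin and CDC-48 list had 11 of 36 (30.6%), led by cdc-48.1 and by ubc-7, a ubiquitin-conjugating enzyme, at 8.3. Chaperones had 13 of 46 (28.3%), led by hsp-1, an Hsp70, at 11.6 pooled and 11.3 in replicate 2. The respiratory chain and ATP synthase had 9 of 33 (27.3%), with the cytochrome oxidase genes cox-5B (13.8 pooled, 7.14 in replicate 2) and cox-5A (12.2 pooled, 2.89 in replicate 1, 7.06 in replicate 2) and the ATP synthase gene atp-3 (9.4). Proteasome genes had 7 of 28 (25%), led by rpn-3 of the regulatory particle at 10.6. No test of the lists was made, since the lists were chosen with earlier results of these data known.

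Translation factors had 6 of 32 (18.8%), with eef-2, the factor that moves the ribosome along the message, at 11.3 pooled and eif-3.B at 9.7 after eif-3.C and iff-2. The translocon and secretion list had 8 of 43 (18.6%), with rab-18 at 9.65 and rab-7 at 8.1 after trap-3. Histone genes had 7 of 46 (15.2%), splicing genes 6 of 42 (14.3%), with rsp-6 at 9.26 and prp-8 at 9.15, transcription machinery 7 of 51 (13.7%) and mitochondrial ribosomal proteins 8 of 60 (13.3%), led by mrpl-28 at 7.35. tRNA synthetases had 2 of 27 (7.41%), ears-2 at 10.4 and yars-2 at 4.84. Synthetases, which charge tRNAs with amino acids, thus stood near 8.18%, with an interval of 0.91 to 24.3%. Intervals of translation factors (7.21 to 36.4%), histones (6.34 to 28.9%) and splicing (5.43 to 28.5%) also included 8.18%. So did those of transcription machinery (5.7 to 26.3%) and mitochondrial ribosomal proteins (5.94 to 24.6%). The interval of the translocon and secretion list, 8.39 to 33.4%, lay above it.

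Lists of tissue genes and of regulators ran from above to below 8.18%. Cuticle collagens, made by the epidermis of the moulting larva, had 16 of 113 (14.2%, interval 8.32 to 22%), with col-138 at 10.9 pooled, 4.23 in replicate 1 and 9.58 in replicate 2 and col-38 at 10.1 pooled, 7.77 in replicate 1 and 3.25 in replicate 2. Epidermal markers had 4 of 24 (16.7%, interval 4.74 to 37.4%), led by lin-26, a factor of epidermal fate, at 5.82. Muscle had 3 of 26 (11.5%, interval 2.45 to 30.2%) and neuron 5 of 72 (6.94%, interval 2.29 to 15.5%). Intestine had 1 of 16 (6.25%, interval 0.158 to 30.2%), germline 3 of 53 (5.66%, interval 1.18 to 15.7%) and pharynx 1 of 46 (2.17%, interval 0.055 to 11.5%). The intervals from epidermis to pharynx all included 8.18%. Homeobox genes had 3 of 51 (5.88%, interval 1.23 to 16.2%), namely ceh-38, ceh-9 at 5.67 and vab-7 at 5.02. The last of these overlapped a peak of replicate 1 only (2.51), as did ceh-9 (2.43). Of 18 G protein genes egl-30 alone held one. Nuclear receptors had 2 of 80 (2.5%), chemoreceptors 7 of 380 (1.84%, interval 0.744 to 3.76%) and the F-box and C-type lectin families 8 of 369 (2.17%, interval 0.941 to 4.23%), where fbxb-85 at 12.5 pooled, 2.88 in replicate 1 and 11.6 in replicate 2 was the highest. Chemoreceptor, F-box and lectin genes are each used in few cells or conditions.

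**Figure D5:**
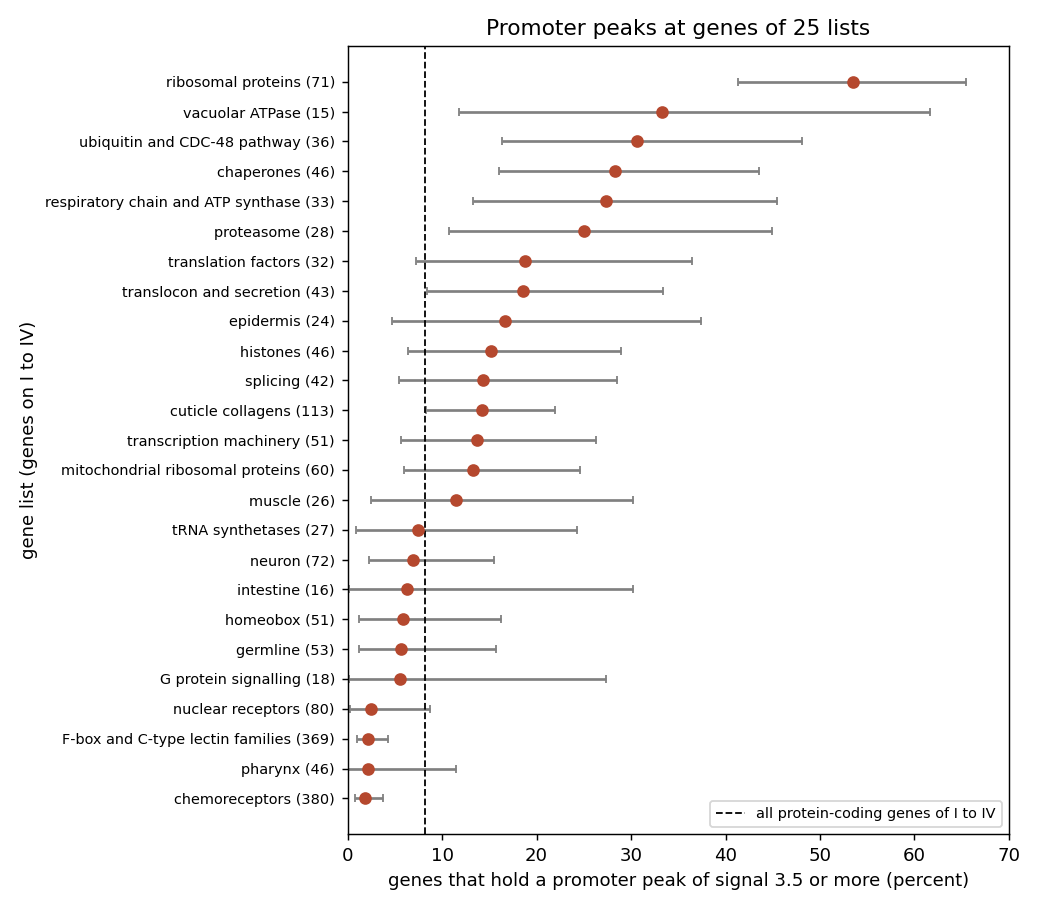
Percentage of the genes of each of 25 lists that hold a promoter peak of signal 3.5 or more, with the number of genes on I to IV in brackets, exact 95% intervals as bars, and a dashed line at 8.18%, the share of all protein-coding genes of I to IV. Ribosomal proteins stand highest at 53.5% and chemoreceptors lowest at 1.84%.

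The peaks were spread over the 4 chromosomes, with 287 on I, 238 on II, 282 on III and 258 on IV. As a share of the protein-coding genes of each, those with a peak made up 9.28% on I, 6.52% on II, 10% on III and 7.5% on IV, and the median signal value was 4.68, 4.56, 4.74 and 4.87. Of the 6 strongest peaks, 3 lay on III, 2 on IV and 1 on II. The ceh-82 gene itself had 0 promoter peaks at its start in the pooled list, and the nearest peak of the set lay 132 kb away.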

How the data were processed

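Peak lists of 2 ChIP-seq replicates and of their pooled reads, on ce11, were used as deposited; ce10 lists were not used. Per the deposited lists of files, peaks were called against a control at a relaxed threshold. The pooled list is labelled as peaks and background, the input for IDR. Not given in the sources used here are the caller, the aligner and the IDR cut-off. The signal value is the authors' score. The −log10 q-value was deposited by the authors in the narrowPeak column for it. Summits are the deposited start plus offset. Depth is unknown. Peaks were 370 bp wide in the pooled list, 470 bp in replicate 1 and 416 bp in replicate 2. Where the text speaks of the same share of a replicate list, its strongest promoter peaks were taken in the proportion that the set has among pooled promoter peaks.

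Gene models were those of Ensembl release 115 on WBcel235, which has the coordinates of ce11, and sequence from the RefSeq assembly of that build. A summit took the first feature that fitted among coding exon, UTR, exon of a noncoding RNA, intron and intergenic DNA. Promoter windows for all genes were 100 bp long, centred 62 bp upstream of the start. Tests were Fisher's exact and exact McNemar tests with Benjamini-Hochberg adjustment and a threshold of 0.05 (Python 3.11.15, scipy 1.17.1, pandas 2.3.3), checked on simulated data. Facing starts are starts on opposite strands that point away from each other, both within 500 bp of the summit. Genes named are those of the 25 strongest peaks, the thresholded peaks, the 10 best by worse replicate rank, the 3 values on either side of the limit, up to 4 per list by signal, 5 genes with 2 peaks, and ceh-82; others were chosen after their values were seen. The peaks and lists were chosen with earlier results of these data known. Peaks share genes, reads and animals and are not replicates of a condition.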

Additional observations from a re-analysis of the deposited data

How the results depend on the processing

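Settings were changed 1 at a time. The number of peaks was 657 with a window of 250 bp and 457 with a signal value of at least 5, against 1065. From 1 replicate's list alone the number was set and not measured. The 1065 strongest promoter peaks were taken from replicate 2's list, and all 764 from replicate 1's. The share upstream kept its direction and call in all settings run except replicate 1's list alone, and was 55.9 to 60.9% over the lists of single replicates. The share with facing starts was 11.6 to 16.8% over them, and its call was lost in 1, the 1065 strongest promoter peaks of replicate 2 (14%, Fisher's exact test, p = 0.0921). As replicate 1's list held 764 promoter peaks in all, taking 1065 left none to compare with; the same share of each list was added after seeing the data, as was the use of only peaks found in a replicate list, which changed no call. The share matched in both replicates was 15.9% at a signal value of at least 3, 34.4% at 5, 9.95% with summits at most 100 bp apart and 4.79% among the 1000 strongest of each list. Of the 12 words 1 to 6 were called over the lists of single replicates, 1 in replicate 1 (GCGCG), against 5. GCGCG kept its call in 11 of 11 settings. Words without a call that changed direction were TTTTTTTT (9.25% at a signal value of at least 3, 11.9% in the same share of replicate 1's list) and, over the strongest promoter peaks of single replicates up to 1065, CACGTG (1.5 to 2.23%), TGATAA (7.72 to 9.2%), TAATTA (3.1 to 4.84%) and CTTCTTCT (1.69 to 1.7%). In the same share of each list these stood at 2.06 to 2.5%, 7.13 to 7.19%, 2.85 to 3.44% and 1.74 to 1.88%. Genes of the lists with a peak numbered 96 at a signal value of at least 5 and 218 when every start within 500 bp counted, against 181. Except as stated, the cause of these changes was not tested. Depth limits could not be given. No paired analysis was possible because the samples form 1 group.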
